A study of Mus musculus with 4 samples.

Results

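The genes described are the G1 cyclins, the kinases they activate and 2 brakes on entry into S phase. They are the D-type cyclin genes Ccnd1, Ccnd2 and Ccnd3, the E-type cyclin genes Ccne1 and Ccne2 and the kinase genes Cdk2, Cdk4 and Cdk6. The brakes are Cdkn1b, whose product inhibits the kinases, and the retinoblastoma gene Rb1, whose product the kinases phosphorylate. The 10 genes were chosen by gene name, and all were found among the 23309 genes of the deposited RNA sequencing table. The cells were mouse embryonic stem cells of strain 129/Ola, either Chd2 mut/mut, also called Chd2KO in the sample titles, or wild type (WT). Chd2 encodes a chromatin remodeler of the chromodomain helicase family. Both genotypes were grown at passages 10 to 20 on gelatin without a named feeder layer, with serum and LIF, the cytokine that keeps them undifferentiated, and had 2 libraries each, named lot 1 and lot 2. The labels give neither the kind of Chd2 mutation nor the number of clones, nor how the mutant line was derived from a wild-type line, nor whether the lots were separate cultures.

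To enter S phase, a cell activates D-type cyclins with Cdk4 or Cdk6 and E-type cyclins with Cdk2. These kinases phosphorylate the Rb1 product, which otherwise holds back the E2F transcription factors, and the Cdkn1b product, p27, binds and inhibits cyclin E with Cdk2. Mouse embryonic stem cells are known for a short G1 phase, abundant cyclin E and little dependence on this brake.

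The table holds 1 FPKM value per gene and genotype. It is taken here as the authors' value over the libraries of that genotype, although the column names do not name the libraries. FPKM is a fragment count divided by transcript length and by the size of the library, so levels of different genes can be set side by side. There is no spread between libraries to give, the depth is unknown, and significance can be taken only from the q-values in the authors' deposited table. Chd2 itself was listed at 5.69 FPKM in Chd2mut/mut cells and at 10.2 FPKM in WT cells, with a q-value of 0.0103 in the authors' deposited table. Of 8 pluripotent stem cell markers, all were kept at a mean of at least 1 FPKM, and Pou5f1, picked with its values known, had 1071 FPKM in Chd2mut/mut cells and 1032 FPKM in WT cells. Of 8 fibroblast markers, which would mark feeder cells, only Thy1 reached a mean of 1 FPKM, at 11.5 FPKM in Chd2mut/mut cells and 14.2 FPKM in WT cells. Of the others, picked with their values known, the collagen genes Col1a1 and Col1a2 were below 0.1 FPKM in both genotypes, and Col3a1, Postn and Lum were listed at 0 in both. The summed level of the fibroblast list was 11.8 FPKM in Chd2mut/mut cells and 14.7 FPKM in WT cells, nearly all of it Thy1.

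Promoter sequence is shown for the genes with the largest relative differences, beside the kinase genes with small ones, so that the regions can be read next to the values. RefSeq promoter windows of build GRCm38.p6 were found for 6 of the 10 genes, and Ccnd1, Ccnd2, Ccne2 and Rb1 had no entry. Each line gives the 150 bases just upstream of an annotated transcription start, 5′ to 3′ on the strand of the gene. Capitals mark matches on either strand to the E2F motif (TTTCCCGC, TTTGGCGC, TTTCGCGC or TTTGCCGC), the GC box (GGGCGG), the CCAAT box (CCAAT), the E box (CACGTG) and the TATA box (TATAAA). Ccnd3 has 2 annotated starts, and which of them was used in these cells was not tested.
Ccne1, chr7:38107491-38107640, minus strand: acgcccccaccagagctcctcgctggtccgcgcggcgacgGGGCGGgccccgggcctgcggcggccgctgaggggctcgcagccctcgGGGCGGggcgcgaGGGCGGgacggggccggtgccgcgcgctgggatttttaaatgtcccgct
Ccnd3 start 1, chr17:47504901-47505050, plus strand: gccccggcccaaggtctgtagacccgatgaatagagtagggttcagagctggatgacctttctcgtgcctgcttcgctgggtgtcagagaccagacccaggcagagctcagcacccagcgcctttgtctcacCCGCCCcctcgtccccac
Ccnd3 start 2, chr17:47593317-47593466, plus strand: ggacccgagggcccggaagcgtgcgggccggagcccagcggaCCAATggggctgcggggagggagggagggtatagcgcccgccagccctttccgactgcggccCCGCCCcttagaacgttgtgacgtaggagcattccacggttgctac
Cdkn1b, chr6:134920251-134920400, plus strand: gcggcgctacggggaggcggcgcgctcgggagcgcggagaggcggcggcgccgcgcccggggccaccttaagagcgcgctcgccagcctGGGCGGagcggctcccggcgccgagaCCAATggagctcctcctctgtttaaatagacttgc
Cdk4, chr10:127063385-127063534, plus strand: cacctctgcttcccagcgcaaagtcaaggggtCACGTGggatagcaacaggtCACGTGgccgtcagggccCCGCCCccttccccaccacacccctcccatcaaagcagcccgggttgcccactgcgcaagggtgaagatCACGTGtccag
Cdk2, chr10:128705052-128705201, minus strand: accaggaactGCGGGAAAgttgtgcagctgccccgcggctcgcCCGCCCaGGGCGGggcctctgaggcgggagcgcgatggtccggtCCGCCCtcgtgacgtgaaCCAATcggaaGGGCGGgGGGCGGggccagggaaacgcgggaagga

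The number of CG dinucleotides was 24 in the Ccne1 window, 23 in that of Cdkn1b, 18 in that of Cdk2, 8 in that of Cdk4, and 7 and 15 in those of Ccnd3 start 1 and start 2, while the median over all 32851 windows of the table was 4. The GC box, which is bound by Sp1 family factors, was present 3 times in the Ccne1 window, 5 times in the Cdk2 window and once in the windows of Cdkn1b, Cdk4 and each start of Ccnd3. It was found in 28.6% of all windows. The E2F motif was found in the Cdk2 window and in 1.24% of all windows. The E box, a motif bound by Myc with Max, was present 3 times in the Cdk4 window and was found in 4.295% of all windows. The CCAAT box, found in 24.5% of all windows, was in the windows of Cdkn1b, Cdk2 and the start of Ccnd3 numbered 2. The TATA box, found in 7.57% of all windows, was in the window of Cdk6, whose sequence is not shown.

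No gene of the 10 was called different between the genotypes. In the authors' deposited table the call was made for 0.718% of the 11276 genes whose q-value lay below 1, and for 0 of these 10. The smallest q-value among them was 0.393, for Ccne1, and 283 genes of the table had a smaller one. The table gives no unadjusted p-values, so a count at an unadjusted threshold cannot be given. In bulk RNA, a different share of cells in a cell cycle phase and a different amount of RNA per cell cannot be told apart. By plain ratio, 6 of the 10 genes were lower and 4 higher in Chd2mut/mut cells. Among the 10766 genes that reached a mean of 1 FPKM over the genotypes, 50.4% were lower and 49.6% higher. The median change of the 10 genes was -0.03 on the scale of log2(FPKM + 1), Chd2mut/mut minus WT, and that of the 10766 genes was -0.0012. The median of the 10 came out just above 0 when upper quartiles were set equal or the columns were quantile normalized. That of the 10766 genes was then 0.035 and 0.0074, so the 10 stayed below it in both settings. On this scale the change of a gene near 1 FPKM comes out smaller than its plain ratio.

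The 10 genes differed by more than 100-fold in level, and the order was nearly the same in both genotypes. Cdk4 was the most abundant, followed by Ccne1, Ccnd3, Ccnd1, Cdk2, Cdkn1b, Cdk6 and Rb1. The least abundant were Ccnd2 and Ccne2, whose order differed, with Ccnd2 above Ccne2 in Chd2mut/mut cells and just below it in WT cells. In both genotypes Ccnd1 and Cdk2 were close together in level, and with no spread between libraries their order is a description only.

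**Figure D1:**
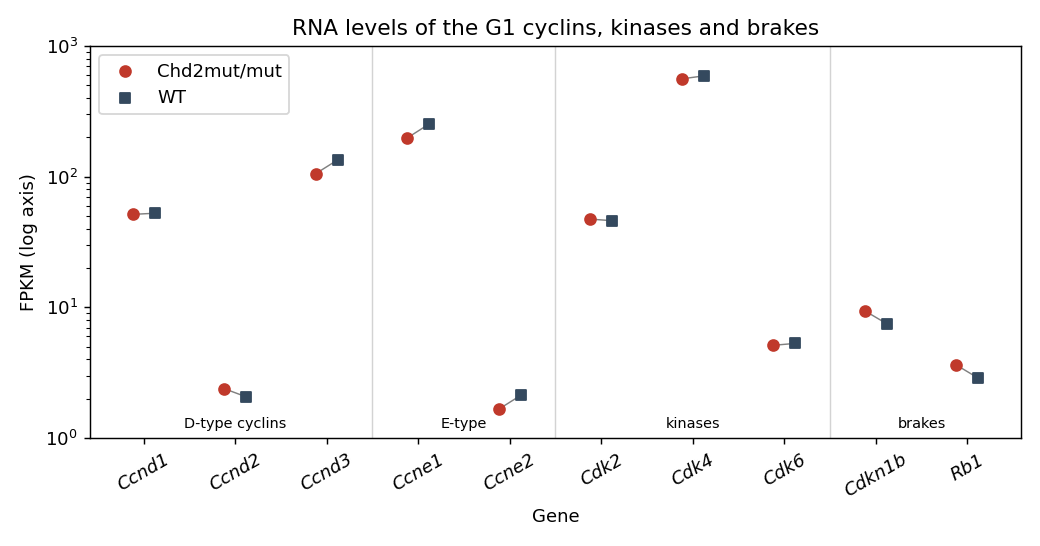
FPKM of each gene on a log axis, with Chd2mut/mut as red circles, WT as dark squares and 1 value per genotype. Cdk4 stands at 560.0 and 589.95 FPKM and Ccne2 at 1.67 and 2.12 FPKM in Chd2mut/mut and WT cells, and the gaps between genes are far wider than those between genotypes.

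Among the D-type cyclins, which bind Cdk4 and Cdk6, Ccnd3 was the main transcript and the one that differed most in FPKM. Ccnd3 was at 105 FPKM in Chd2mut/mut cells and 134 FPKM in WT cells, a ratio of 0.784. Its q-value in the authors' deposited table was 0.729. Ccnd1 was at 51.5 FPKM in Chd2mut/mut cells and 52.5 FPKM in WT cells, a ratio of 0.98, which moved just above 1 with upper quartiles set equal or with quantile normalization. Ccnd2 was at 2.39 FPKM in Chd2mut/mut cells and 2.07 FPKM in WT cells, a ratio of 1.15. These 3 genes thus gave 1 value well below the WT level, 1 close to it and 1 above it, and in the authors' deposited table Ccnd1 and Ccnd2 had q-values of 0.998 and 0.952.

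The makeup of the D-type pool followed from these levels. Ccnd3 made up 66.2% of the summed D-type FPKM in Chd2mut/mut cells and 71.1% in WT cells. The share of Ccnd1 was 32.3% in Chd2mut/mut cells and 27.8% in WT cells, and that of Ccnd2 was 1.499% and 1.095%. The summed D-type level was 159 FPKM in Chd2mut/mut cells and 189 FPKM in WT cells, a ratio of 0.843. Nearly all of that gap was the difference of -29.0 FPKM in Ccnd3.

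The E-type cyclins, which bind Cdk2, were both lower in Chd2mut/mut cells, and the pool was almost wholly Ccne1. Ccne1 was at 198 FPKM in Chd2mut/mut cells and 253 FPKM in WT cells, a ratio of 0.781. Ccne2 was at 1.67 FPKM in Chd2mut/mut cells and 2.12 FPKM in WT cells, a ratio of 0.784. As deposited, the ratios of the 2 paralogs were thus alike although their levels differed by more than 100-fold. With quantile normalization they were 0.813 for Ccne1 and 0.769 for Ccne2, and ratios spread widely at the low level of Ccne2. Ccne1 made up 99.2% of the E-type FPKM in both genotypes. The q-values in the authors' deposited table were 0.393 for Ccne1 and 0.998 for Ccne2. The difference in Ccne1 of -55.3 FPKM was the widest of the 10 genes in FPKM.

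The summed cyclin RNA was therefore lower by the deposited values, mostly through Ccne1 and Ccnd3, while Ccnd1 was close to the WT level and Ccnd2 above it. Neither Ccne1 nor Ccnd3 was called, and both lay at 100 to 1000 FPKM, where 76.2% of all genes were lower. The 5 cyclins summed to 359 FPKM in Chd2mut/mut cells and 444 FPKM in WT cells, a ratio of 0.808. Ccne1 made up 55.1% of that sum in Chd2mut/mut cells and 56.97% in WT cells. There were 1.252 E-type FPKM per D-type FPKM in Chd2mut/mut cells and 1.35 in WT cells.

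**Figure D2:**
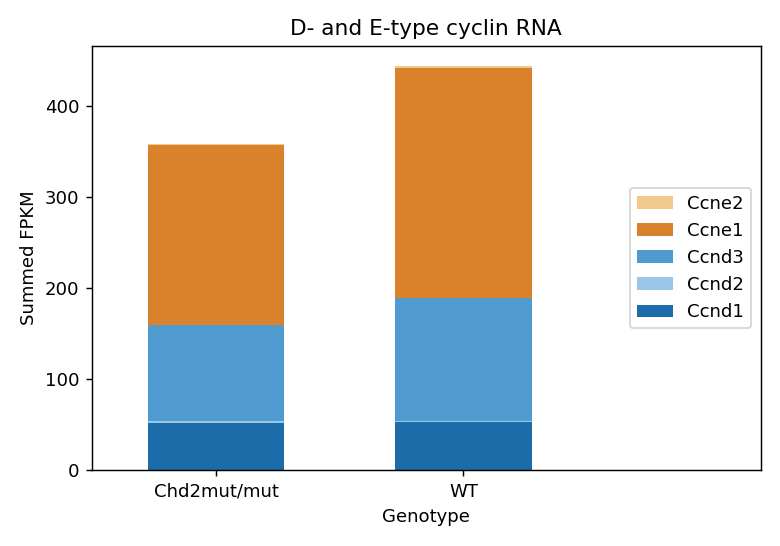
Summed FPKM of the 5 cyclin genes in Chd2mut/mut (left) and WT (right), with 1 value per gene and genotype stacked by gene. The Ccne1 and Ccnd3 segments are shorter in Chd2mut/mut, the Ccnd1 segment is about equal at 51.5 and 52.5 FPKM, and Ccnd2 and Ccne2 are barely visible.

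The kinases differed little. Cdk4, a partner of the D-type cyclins, was at 560.0 FPKM in Chd2mut/mut cells and 589.95 FPKM in WT cells, a ratio of 0.949. Cdk6, its paralog with the same partners, was at 5.13 FPKM in Chd2mut/mut cells and 5.31 FPKM in WT cells, a ratio of 0.967. Cdk2, the partner of the E-type cyclins, was at 47.4 FPKM in Chd2mut/mut cells and 46.0 FPKM in WT cells, a ratio of 1.03. All 3 had a q-value of 0.998 in the authors' deposited table. Cdk4 exceeded Cdk6 109-fold in Chd2mut/mut cells and 111-fold in WT cells.

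Set against their cyclins, the kinases showed different balances of RNA. There were 3.55 FPKM of Cdk4 and Cdk6 per FPKM of D-type cyclin in Chd2mut/mut cells and 3.15 in WT cells. There were 4.21 FPKM of E-type cyclin per FPKM of Cdk2 in Chd2mut/mut cells and 5.54 in WT cells. In both genotypes, then, kinase RNA outnumbered cyclin RNA on the D-type side and cyclin RNA outnumbered kinase RNA on the E-type side. Such quotients do not depend on a common scaling of the libraries, but a difference between the genotypes that varies with level can shift them. They say nothing of protein.

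Both brakes were higher in Chd2mut/mut cells by similar ratios, at low levels. Cdkn1b was at 9.42 FPKM in Chd2mut/mut cells and 7.503 FPKM in WT cells, a ratio of 1.26. Its q-value in the authors' deposited table was 0.684. Rb1 was at 3.63 FPKM in Chd2mut/mut cells and 2.88 FPKM in WT cells, also a ratio of 1.26, and its q-value there was 0.878. Per 100 FPKM of the 5 cyclins there were 2.63 FPKM of Cdkn1b in Chd2mut/mut cells and 1.69 FPKM in WT cells. Per 100 FPKM of D-type cyclin there were 2.28 FPKM of Rb1 in Chd2mut/mut cells and 1.52 FPKM in WT cells. These quotients join genes of opposite direction that were each uncalled, and no test of them could be made.

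A limit of at least 25% higher or 20% lower by plain ratio, which is the same fold in both directions, was passed by 5 of the 10 genes and by 12.8% of the genes that reached a mean of 1 FPKM. With upper quartiles set equal 2 of the 10 and 13.4% of those genes passed it, and with quantile normalization 1 of the 10 and 12.3%. As deposited, Ccnd3, Ccne1 and Ccne2 were lower by 1.275-fold, 1.28-fold and 1.28-fold, where 5.9% of those genes passed on the lower side. Cdkn1b and Rb1 were higher by 1.26-fold each, where 6.94% passed on the higher side. All 5 lay just past the limit, the nearest gene inside it was Ccnd2 at 1.15-fold, and none of the 10 reached 1.5-fold, which 3.75% of the background genes did. The limit was chosen with earlier results of these data known, so the counts past it are a description only. Of the same background genes, 4.79% had a lower ratio than Ccne1 and 6.43% a higher ratio than Rb1.

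The width of the ratios depended on level. Past this limit in either direction were 25.9% of genes with a mean of 1 to 5 FPKM, the range of Ccnd2, Ccne2 and Rb1. The share was 7.85% from 5 to 50 FPKM, the range of Cdk2, Cdk6 and Cdkn1b, and 5.08% at 50 FPKM or more, the range of Ccnd1, Ccnd3, Ccne1 and Cdk4. Direction also depended on level. Of the genes with a mean of 100 to 1000 FPKM, where Ccnd3, Ccne1 and Cdk4 lay, 76.2% were lower in Chd2mut/mut cells, with a median change of -0.07 on the log2(FPKM + 1) scale, while of those with 1 to 5 FPKM 42.2% were lower, with a median of 0.03. Ccnd3 and Ccne1, with changes of -0.35 each on that scale, lay well below the median of their range, where 20 of 886 genes had a ratio at or below that of Ccne1.

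**Figure D3:**
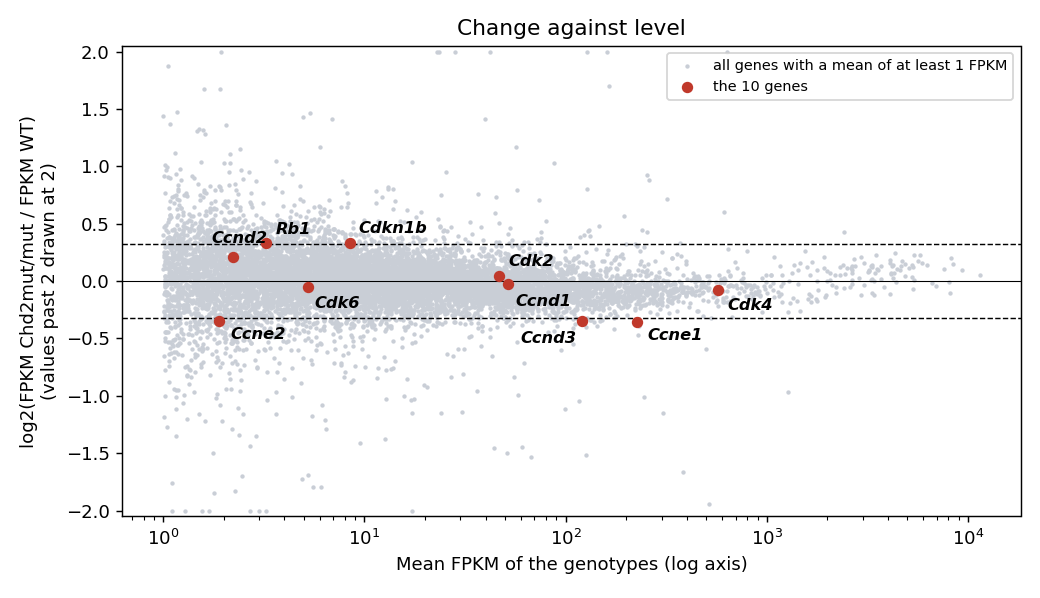
Change against level for the 10 genes (red) and all genes that reached a mean of 1 FPKM (grey), as log2 of the plain FPKM ratio of Chd2mut/mut over WT against the mean FPKM on a log axis, with dashed lines at 25% higher and 20% lower and values past 2 drawn at 2. Ccnd3 and Ccne1 lie just under the lower line where the grey cloud is narrow, and Ccne2 and Rb1 lie near the lines where it is wide.

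Some of these genes share exons with a neighbour on the opposite strand, and the sources used here do not say whether the counting used strand. In the GENCODE M21 annotation, 8 of the 10 genes had such an overlap, and Ccne1 and Cdkn1b had none. For Ccnd3 the partner was Bysl, at 47.0 FPKM in Chd2mut/mut cells and 54.6 FPKM in WT cells, with 361 shared bases. For Rb1 one partner was Lpar6, at 7.34 FPKM in Chd2mut/mut cells and 6.58 FPKM in WT cells, with 408 shared bases, and the other was Rcbtb2, at 4.79 and 5.11 FPKM, with 488 shared bases. For Ccne2 the partner was Ints8, at 9.85 FPKM in Chd2mut/mut cells and 11.4 FPKM in WT cells, with 609 shared bases. Bysl, Lpar6 and Ints8 lay on the same side of the WT level as the gene they overlap and Rcbtb2 on the other, and their part in the values was not tested. Ccnd3 also has an annotated processed pseudogene, Ccnd3-ps, to which reads could be assigned.

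The other genes of the pathway were described from lists. Their counts are to be read beside 50.4% lower and 49.6% higher among all genes that reached a mean of 1 FPKM. None of the listed genes was called in the authors' deposited table, where 0.718% of genes with a q-value below 1 were called. The other inhibitors lay on both sides of the WT level. Of 7 listed, 5 were kept at a mean of at least 1 FPKM, with 3 lower and 2 higher. Of the higher ones, Cdkn3 was about equal, at 5.01 FPKM in Chd2mut/mut cells and 4.97 FPKM in WT cells. With quantile normalization 4 of the 5 were lower, where 5131 of all 10766 genes were. Cdkn1c, which encodes p57, was at 31.7 FPKM in Chd2mut/mut cells and 42.0 FPKM in WT cells, a ratio of 0.754. This ratio lay past the limit given above, which 5.9% of all genes that reached a mean of 1 FPKM passed on the lower side. The q-value of Cdkn1c in the authors' deposited table was 0.293, smaller than that of any of the 10 genes. Cdkn1a, which encodes p21, was at 15.5 FPKM in Chd2mut/mut cells and 13.8 FPKM in WT cells. The INK4 family members Cdkn2a and Cdkn2b, named for inhibition of Cdk4 and Cdk6, were at 21.4 and 2.30 FPKM in Chd2mut/mut cells and at 23.7 and 2.77 FPKM in WT cells. Summed over Cdkn1a, Cdkn1b and Cdkn1c, the p21, p27 and p57 family came to 56.6 FPKM in Chd2mut/mut cells and 63.3 FPKM in WT cells. The share of Cdkn1b in that sum was 16.7% in Chd2mut/mut cells and 11.9% in WT cells, so the higher Cdkn1b stood beside a lower family total.

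Of the pocket proteins, E2F and DP factors and MuvB subunits, which act downstream of the kinases, 16 of 17 were kept, with 11 higher and 5 lower and a median change of 0.03. The pocket protein gene Rbl2, picked with its values known, had 1.097 FPKM in Chd2mut/mut cells and 0.659 FPKM in WT cells, and its paralog Rbl1, picked likewise, had 5.598 and 5.51 FPKM. Rbl2 was the gene not kept, so it is not in these counts, and its q-value in the authors' deposited table was 0.835. The activator E2f1 was at 19.7 FPKM in Chd2mut/mut cells and 16.7 FPKM in WT cells, and E2f3 at 9.48 and 8.22 FPKM. The repressor E2f6 was at 12.4 FPKM in Chd2mut/mut cells and 10.3 FPKM in WT cells, and the repressor E2f8 at 13.1 and 15.4 FPKM. Rb1 made up 35.1% of the summed FPKM of Rb1, Rbl1 and Rbl2 in Chd2mut/mut cells and 31.8% in WT cells.

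E2F target genes of S phase entry were mostly lower. Of 24 listed and kept, 20 were lower and 4 higher, with a median change of -0.12, beside 50.4% lower and a median of -0.0012 over all genes. Since direction depended on level, the abundant targets were also set beside genes of like level. Of the 15 with a mean of at least 50 FPKM, 13 were lower with a median change of -0.12, where 68.7% of all genes in that range were lower with a median of -0.06. Of the 11 with a mean of 100 to 1000 FPKM, 9 were lower with a median of -0.11, where 76.2% of all genes in that range were lower with a median of -0.07. None of them was past the limit given above. Cdc6, a loader of the replicative helicase, was at 20.9 FPKM in Chd2mut/mut cells and 25.3 FPKM in WT cells. The helicase subunit gene Mcm4 was at 92.3 FPKM in Chd2mut/mut cells and 109 FPKM in WT cells, and the thymidine kinase gene Tk1 at 72.5 and 85.3 FPKM. The most abundant, Pcna, the sliding clamp of DNA polymerases, was at 696 FPKM in Chd2mut/mut cells and 715 FPKM in WT cells. With the columns quantile normalized, 18 of the 24 were lower and the median was -0.07, where 5131 of all 10766 genes were lower. With upper quartiles set equal 17 were lower, where 4391 of all 10766 genes were.

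The cyclins of later phases lay nearer to the WT level by ratio than Ccne1 did. Of 7 genes for the S and M phase cyclins and Cdk1, 5 were kept, with 4 lower, 1 higher and a median change of -0.10. All 5 had a mean of at least 50 FPKM, where 68.7% of all genes were lower with a median of -0.06. With quantile normalization 3 were lower, where 5131 of all 10766 genes were. Ccnb1, the mitotic cyclin B1, was at 160.02 FPKM in Chd2mut/mut cells and 172 FPKM in WT cells. Ccna2, the cyclin of S phase and mitotic entry, was at 84.0 FPKM in Chd2mut/mut cells and 86.6 FPKM in WT cells. Cdk1, the mitotic kinase, was at 63.0 FPKM in Chd2mut/mut cells and 68.3 FPKM in WT cells, and Ccnb2 at 77.1 and 73.0 FPKM.

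Genes that activate the kinases or remove the cyclins lay on both sides of the WT level. For the activating kinase, the CDC25 phosphatases and the inhibitory kinases, 5 of 8 were lower and the median change was -0.02. With upper quartiles set equal 2 of 8 were lower, where 4391 of all 10766 genes were. Ccnh, the cyclin of the activating kinase, was at 20.4 FPKM in Chd2mut/mut cells and 25.4 FPKM in WT cells, a ratio of 0.8002, and Cdc25a, which encodes an activating phosphatase of Cdk2, at 45.6 and 44.2 FPKM. For the turnover of G1 cyclins and p27, 15 of 16 genes were kept, with 9 lower, 6 higher and a median change of -0.04. Fbxw7, whose product marks cyclin E for degradation, was at 4.29 FPKM in Chd2mut/mut cells and 3.73 FPKM in WT cells. Gsk3b, a kinase that phosphorylates cyclin D1, was at 4.49 FPKM in Chd2mut/mut cells and 3.75 FPKM in WT cells, and Skp1a, a core subunit of the SCF ubiquitin ligase, at 322 and 345 FPKM.

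**Figure D4:**
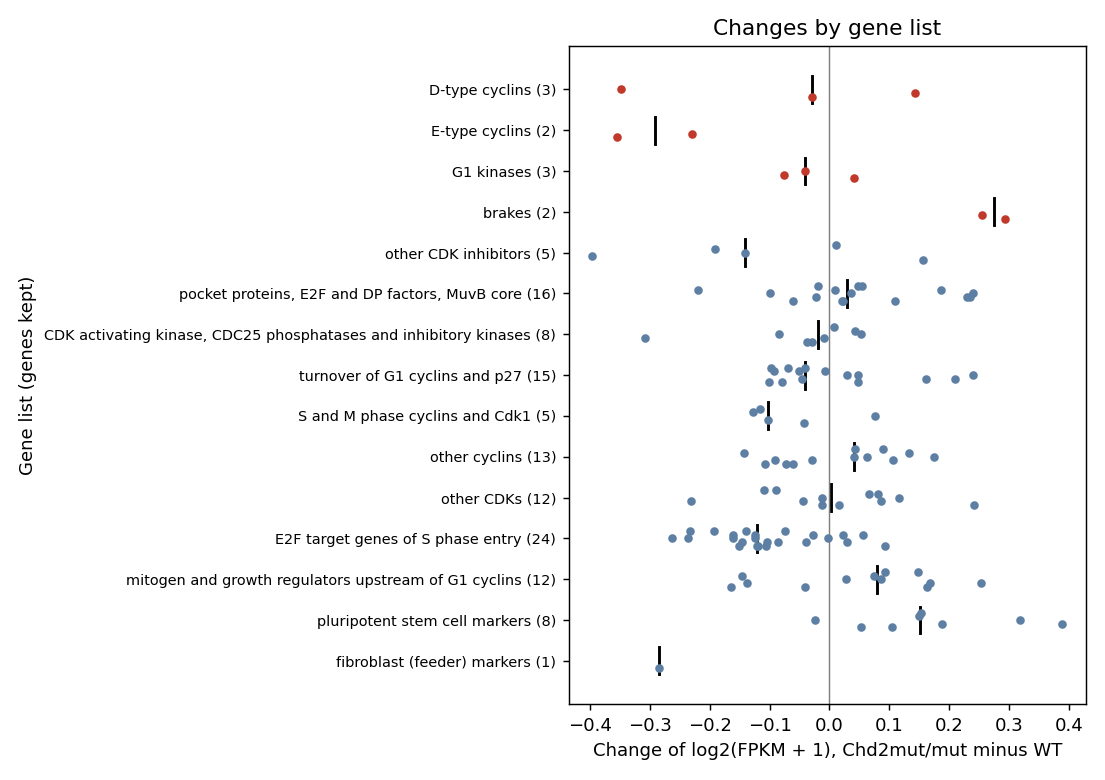
Change of log2(FPKM + 1), Chd2mut/mut minus WT, for each gene kept, by list, with the number of genes in brackets, the 10 genes in red, other lists in blue and black bars at medians. Both E-type cyclins lie left of 0 and both brakes right of it, and the E2F target genes center at -0.12.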

How the data were processed

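Per the labels, RNA was sequenced from 4 libraries, 2 per genotype, prepared with the NEBNext Ultra RNA kit. The submitters' processing notes name Cufflinks, TopHat2 2.1.0 and bcl2fastq 2.17.1.14, with build mm9. For Cufflinks the version, and for the q-values the test, are not given in those sources, nor is the annotation. The authors deposited FPKM values, 1 per gene and genotype, in which a 0 can be a failed estimate. For each gene the authors deposited a q-value, a call and a log2 fold change computed without a pseudocount. Values per library are not analysed here, so no fit across libraries was made, depth is unknown and no interval can be given.

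From these, plain ratios, changes of log2(FPKM + 1), sums, shares and ranks were computed with Python 3.11.15, numpy 2.4.6 and pandas 2.3.3. Backgrounds were taken over genes whose mean of the genotypes reached 1 FPKM. Promoters came from RefSeq and transcripts and overlaps from GENCODE M21, both on GRCm38, matched by symbol; this is not the authors' build. The scaling and trend functions were tested on simulated data. The 10 genes, the 11 other lists and the limit of 25% higher or 20% lower were chosen with earlier results of these data known. From the other lists, the text names genes among the 6 largest changes and the most abundant gene of each list, and any called gene; others are said to be picked with their values known.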

Additional observations from a re-analysis of the deposited data

How the results depend on the processing

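No paired analysis was possible because the deposited columns hold 1 value per genotype, and for the same reason no library could be left out. The 5 genes past the limit of 25% higher or 20% lower kept their direction in all 35 values under 7 alternatives, of which 1, a fit that removes the dependence on GC content and length, was chosen after seeing the data. A different pseudocount cannot change a direction, and a common factor close to 1 cannot turn ratios this far from 1. Most of these values therefore could not have come out otherwise, and their number is no measure of robustness. Over the 10 genes, 59 of 70 such values moved by less than 1.5 times, 9 moved by more and 2 changed sign. Both were Ccnd1, at 0.012 with upper quartiles set equal and at 0.028 with quantile normalization, against -0.028. The median change of the 10 genes was 0.0026 with upper quartiles set equal and 0.0067 with quantile normalization, where that of all 10766 genes was 0.035 and 0.0074. The median of the 10 stayed below 0 at -0.055 with the dependence on GC content and length removed and -0.039 with columns divided by their sums. It was -0.039 without a pseudocount, -0.038 with a pseudocount of 0.1 and -0.041 over the 7 genes averaging at least 5 FPKM. Genes past the limit numbered 5 of the 10 as deposited, where 12.8% of all genes that reached a mean of 1 FPKM passed it. Of the 7 averaging at least 5 FPKM, 3 passed, where 7.85% of genes from 5 to 50 FPKM and 5.08% at 50 FPKM or more did. The number was 2 (Cdkn1b and Rb1) with upper quartiles set equal, where 13.4% passed, and 1 (Ccne2) with quantile normalization, where 12.3% passed. At 1.5-fold it was 0, where 3.75% passed. The summed ratio of D-type cyclins was 0.867 with upper quartiles set equal and 0.88 with quantile normalization, that of E-type cyclins 0.804 and 0.812, and that of the kinases 0.982 and 0.995, and 0.952 with columns divided by their sums. No gene of the 10 was called by the authors at any filter. The cause of these shifts was not tested.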

Other observations

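Regulators upstream of the G1 cyclins showed no call in the authors' deposited table, and the Myc paralogs lay on opposite sides of the WT level. Of 13 listed, 12 were kept, with 8 higher and 4 lower in Chd2mut/mut cells and a median change of 0.08 on the log2(FPKM + 1) scale. Among all genes that reached a mean of 1 FPKM, 49.6% were higher. Mycn was at 50.2 FPKM in Chd2mut/mut cells and 41.9 FPKM in WT cells. Myc was at 51.5 FPKM in Chd2mut/mut cells and 57.9 FPKM in WT cells, and its partner Max at 44.8 and 49.7 FPKM. Ctnnb1, which encodes beta-catenin, was at 217 FPKM in Chd2mut/mut cells and 239 FPKM in WT cells.

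Cyclins and kinases outside the G1 set, some of them known for roles in transcription, lay on both sides. Of 13 other cyclins kept, 7 were higher and 6 lower, and of 12 other kinases of the CDK family kept, 6 were higher and 6 lower. Ccnl2, a cyclin linked to splicing, was at 21.1 FPKM in Chd2mut/mut cells and 18.5 FPKM in WT cells. Cdk19, a kinase of the Mediator complex, was at 1.90 FPKM in Chd2mut/mut cells and 1.45 FPKM in WT cells, the 1 gene of these lists at least 25% higher or 20% lower. Of the 8 pluripotency markers, 7 were higher, beside 49.6% of all genes that reached a mean of 1 FPKM, and none was called in the authors' deposited table. Nanog was at 150.1 FPKM in Chd2mut/mut cells and 114 FPKM in WT cells, and Sox2 at 222 and 178 FPKM. Their q-values in the authors' deposited table were 0.293 and 0.496.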
